A study of Mus musculus with 24 samples.

Results

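Gene expression in mouse embryonic stem cells (mESCs) heterozygous for a deletion of Smchd1 (het) was compared with that in wild-type mESCs (wt) at day 2.5 of differentiation towards neuromesodermal progenitors (NMPs), 12 h after Wnt activation. The comparison took the 3 het and the 3 wt libraries that the labels place at day 2.5, which are 6 of the 24 libraries of the series, and every gene of the count table was considered. Each library came from a different mESC line, and the other 18 libraries are the same 6 lines at day 0, day 2 and day 3. The comparison asks whether expression levels 12 h after Wnt activation differ where a zygotic Smchd1 allele is missing. Whether the change from day 2 to day 2.5 differs between the genotypes was not tested.

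The wt lines were Smchd1 fl/+, with a floxed but intact allele beside a wild-type one, and the het lines were Smchd1 del/+, with a deleted allele beside a wild-type one. Per the study's methods, both came from the cross of a Cast Smchd1 +/+ mother with a C57BL/6 Smchd1 del/fl father that carried MMTV-Cre T/+, so the oocytes of both groups held working Smchd1 and the deleted allele was paternal. All lines were male F1 lines derived from single blastocysts. They were grown in 2i + LIF medium, moved stepwise to DMEM with LIF, switched at day 0 to N2B27 medium with basic FGF, and given the GSK3 inhibitor CHIR99021 in addition at day 2. Whether a line inherited the Cre transgene is not given in the sources used here.

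SMCHD1 is a noncanonical SMC protein that takes part in silencing the inactive X chromosome, imprinted genes, clustered protocadherins and Hox genes. In canonical Wnt signalling, inhibition of GSK3 spares beta-catenin from degradation, and beta-catenin then acts with Tcf/Lef factors at target genes. In the caudal epiblast these targets include T, the Cdx genes and Sp5, together with feedback inhibitors such as Axin2, and the Hox genes are switched on in their wake. Cells that hold T together with Sox2 are the NMPs, which give rise to spinal cord and to trunk mesoderm.

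The 3 wt libraries held 18.0, 7.10 and 16.7 M (mega) counts and the 3 het libraries 19.7, 18.2 and 19.7 M. Line 1 of wt stood apart. Its share of counts from mitochondrial genes was 0.284%, against 0.529 to 0.631% in the other 5 libraries, and the median log2 ratio of chromosome 8 genes to the mean of the 6 libraries was 0.18 in it, against -0.06 to 0.03 in the others. It also lay outside the other 5 on further chromosomes, among them chromosome 13 (-0.12 against 0.00 to 0.04), the X chromosome (-0.08 against 0.00 to 0.03), chromosome 15 (0.08 against -0.03 to 0.00) and chromosome 7 (0.07 against -0.03 to 0.00). The wt lines also differed more among themselves. Fitted within a group, the common biological coefficient of variation came to 0.206 for wt lines against 0.136 for het lines, and 67.1% of genes had the larger SD in wt. Correlations of log2 counts per M counts (CPM) across genes were 0.980 to 0.986 between wt lines, 0.990 to 0.991 between het lines and 0.984 to 0.990 between the groups. Whether same-coordinate genes on opposite strands could be told apart was checked, and the 1 such pair had identical counts in all 24 libraries, so reads of such a pair cannot be told apart here.

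The markers of the intended state were present in all 6 lines. T, the mesodermal T-box factor, had means of 0.450 (wt) and 0.730 CPM (het) at day 2, and at day 2.5 of 309 ± 131 (wt) and 361 ± 34.1 CPM (het) (SD, n = 3). The feedback inhibitor Axin2 went from 6.81 and 7.77 CPM to 139 ± 51.0 and 129 ± 16.4 CPM (SD, n = 3). Sp5 had 0 counts in every library at day 2 and reached 48.3 ± 10.2 CPM (wt) and 48.5 ± 6.98 CPM (het) at day 2.5 (SD, n = 3). In both genotypes the levels of these Wnt targets 12 h after activation lay far above those at day 2.

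Across all genes, no difference between het and wt passed the test. Of 15588 genes tested with edgeR's quasi-likelihood test, 0 had a Benjamini-Hochberg adjusted p under 0.05 (0%), and 822 had an unadjusted p under 0.05 (5.27%). Of these, 526 were higher in het (3.37%) and 296 lower (1.90%). The 3 het values lay wholly above the 3 wt values for 6.49% of genes and wholly below for 5.22%, together 11.7%. Over all genes, 49.0% of log2 fold changes were above 0 and 51.0% below, with a median of -0.01. These shares are the background for counts below that come from this fit. Other fits had their own shares at an unadjusted p under 0.05. These were 11.7% without wt line 1, 2.92% without het line 1 and 6.04% with a filter of at least 1 count. The shares over all genes at days 0, 2 and 3 are not given here, so counts on those days have no background. The smallest adjusted p was 0.371, for Snhg14, and the next was 0.907.

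The spread between lines set what could have been seen. The median SE of a log2 fold change was 0.19 and the median distance from the estimate to either end of its 95% interval 0.405. For the 6415 genes averaging 500 counts or more that distance was 0.273, and 90.9% of them had an interval wholly inside a 1.5-fold change either way. For the 3336 genes with a mean under 50 counts it was 1.20. All 394 fold changes beyond 2-fold came from genes with a mean under 500 counts, and 367 of them from genes under 50. Among well-expressed genes, then, differences beyond 1.5-fold were mostly outside the intervals, while for genes of low level the intervals were too wide to show differences of that size.

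Smchd1 itself (ENSMUSG00000024054, GRCm38 chromosome 17, 71344489 to 71475343, minus strand) had 124, 138 and 159 CPM in wt lines 1 to 3 against 96.7, 90.4 and 91.7 in het lines 1 to 3. The highest het line lay below the lowest wt line. The log2 fold change was -0.60 (95% CI -0.84 to -0.35), with an unadjusted p of 0.000212 and an adjusted p of 0.907 in edgeR's quasi-likelihood test. An exact permutation test of 3 lines against 3 gave the smallest p that this design allows, 0.1 (two-sided). The same difference was -0.61 at day 0, -0.75 at day 2 and -0.88 at day 3, on the log2 scale. Its adjusted p fell under 0.05 at day 2.5 in 4 of 17 alternative settings, among them the fit of all 24 libraries (0.0176).

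Among genes that separated the groups, Snhg14 had the smallest p. This long non-coding RNA of the Snrpn imprinted cluster on chromosome 7 is made from the paternal allele and runs antisense to Ube3a. It had 44.1, 44.6 and 47.9 CPM across the wt lines against 85.8, 88.9 and 69.6 across the het lines. The wt lines were tightly grouped, and every het line was above them. The log2 fold change was 0.84 (95% CI 0.57 to 1.11, unadjusted p 2.38e-05, adjusted p 0.371 in edgeR), and with any single line left out it was 0.77 to 0.92. At days 0, 2 and 3 the difference was 0.32, 0.54 and 0.31, with overlapping groups on each of those days.

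No member of the Snrpn cluster passed the test. Of its 9 genes, Snhg14 included and all tested, 7 were higher in het and 2 lower, 3 had an unadjusted p under 0.05, and the median log2 fold change was 0.31, against -0.01 over all genes tested. Peg12, a paternally expressed gene related to GSK3-binding proteins, had 4.401, 4.13 and 6.38 CPM in wt against 8.40, 7.13 and 10.1 in het, with no overlap (log2 fold change 0.76, 95% CI 0.21 to 1.32). Ube3a, a ubiquitin ligase, had 108, 109 and 145.1 CPM in wt against 133, 149.7 and 169 in het. The highest wt line lay among the het lines, with a log2 fold change of 0.31 (95% CI 0.01 to 0.61). Of the exon bases of Snhg14, 7.73% overlap exons of other genes, with Ube3a the largest overlap, so some reads of this pair could belong to either. For Ube3a the share was 27.3%, with Gm44560 the largest overlap. Snrpn, which encodes a spliceosomal protein and is the most abundant member, had 247, 209.9 and 178 CPM in wt against 189.9, 203 and 229 in het and a log2 fold change of -0.03 (95% CI -0.32 to 0.25), and Snurf, which shares its transcript, was at -0.13. Magel2 had 17, 0 and 4 counts in wt and 36, 18 and 21 in het, too few for a useful fold. Without het line 3, Snhg14 was the 1 of the 9 genes with an unadjusted p under 0.05, and without wt line 1, 4 had one.

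**Figure D1:**
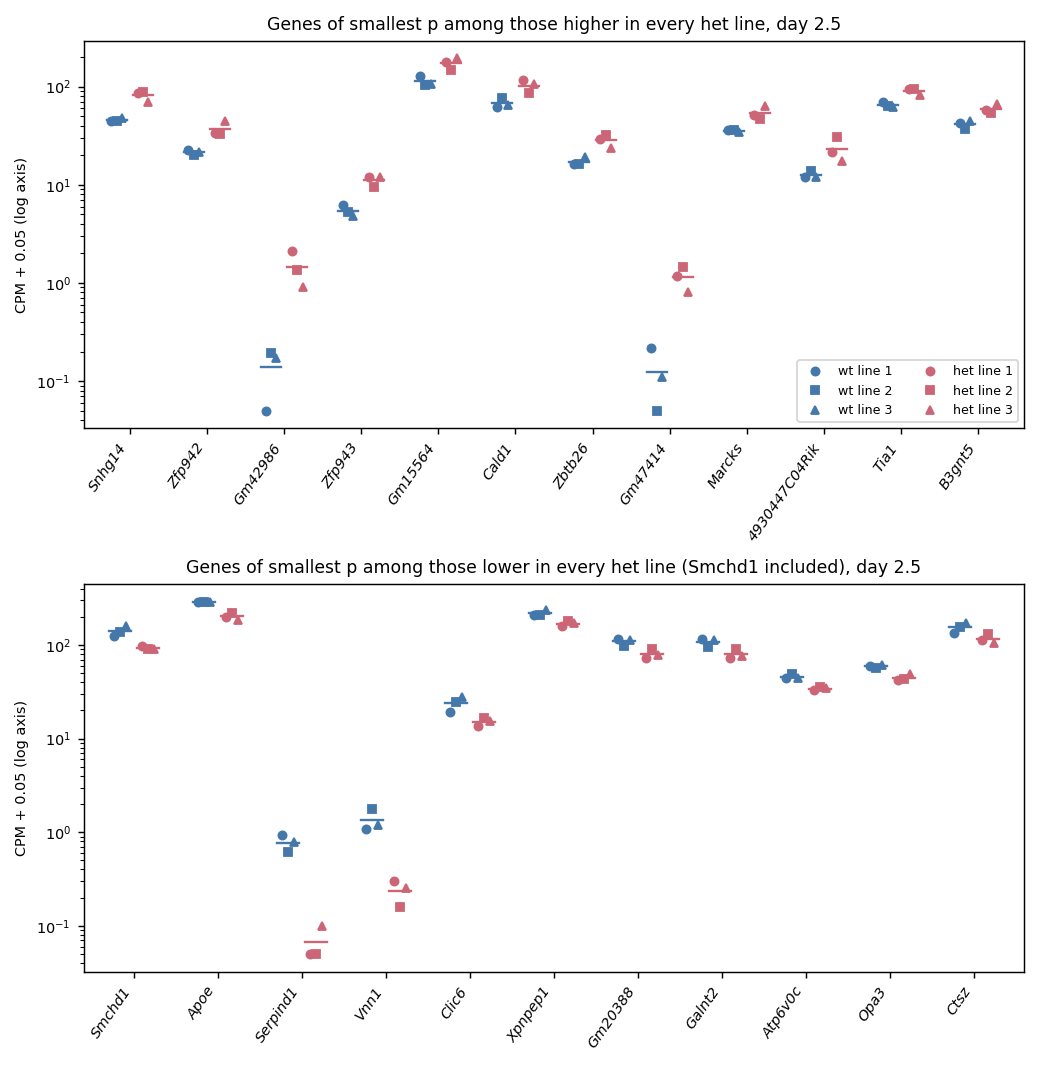
Level of 12 genes higher and 11 lower in het, among those with the smallest p of the genes whose groups did not overlap, in CPM plus 0.05 on a log axis, at day 2.5. Each point is a line, blue for wt and red for het, with a bar at the mean of 3 lines. Snhg14 sits at 44.1 to 47.9 CPM in wt and at 69.6 to 88.9 CPM in het, and Smchd1 at 124 to 159 CPM in wt and 90.4 to 96.7 CPM in het, while Gm42986, Gm47414, Serpind1 and Vnn1 are near the bottom of the axis.

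The 12 higher genes chosen by smallest p included Snhg14, 2 zinc finger genes of chromosome 17 treated below, and 9 others. Cald1, which encodes the actin-binding protein caldesmon, had 61.7, 76.8 and 64.3 CPM in wt against 116, 86.04 and 105 in het (log2 fold change 0.60, 95% CI 0.31 to 0.90). Marcks, a membrane-bound actin regulator, had 36.4, 35.8 and 34.3 CPM in wt against 50.7, 46.5 and 62.8 in het (log2 fold change 0.59, 95% CI 0.29 to 0.89). In both genes every het line lay above every wt line. Tia1, an RNA-binding protein of stress granules, had 69.4, 62.98 and 61.7 CPM in wt against 93.3, 94.1 and 81.4 in het (log2 fold change 0.47). B3gnt5, a glycosyltransferase of lactoseries glycolipids, had 42.3, 37.2 and 44.3 CPM in wt against 58.2, 53.96 and 65.7 in het (log2 fold change 0.52). Zbtb26, a zinc finger protein with a BTB domain, had 16.2, 16.1 and 19.14 CPM in wt against 29.3, 32.1 and 23.5 in het (log2 fold change 0.72). The remaining members were 4930447C04Rik (log2 fold change 0.89), the antisense RNA Gm15564 (0.60) and 2 genes with almost no reads in wt. Of these 2, Gm42986 had 0, 1 and 2 counts in wt and 41, 24 and 17 in het, and Gm47414 had 3, 0 and 1 counts in wt and 22, 26 and 15 in het. These wt counts are at or under the floor of 3 counts per library, so no fold is given.

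Apoe led the lower genes after Smchd1. It encodes apolipoprotein E, a lipid carrier, and had 288, 291 and 291 CPM in wt against 199, 223 and 186 in het. The wt lines were nearly equal, with an SD of 1.87 CPM, and the het lines all lay well below them. Across the same wt lines the summed level of the endoderm markers described below ran from 6255 to 17042 CPM. In het lines 1 to 3 that sum was 8031, 10336 and 6993 CPM, the same order of lines as for Apoe. For Apoe the log2 fold change was -0.52 (95% CI -0.74 to -0.30, unadjusted p 0.000284 in edgeR), -0.59 to -0.48 with any 1 line left out, and -0.38, 0.00 and -0.31 at days 0, 2 and 3. Ctsz, a lysosomal cysteine protease, had 136, 155 and 174 CPM in wt against 114, 130.4 and 105 in het (log2 fold change -0.41). Atp6v0c, a subunit of the vacuolar proton pump that acidifies lysosomes, had 44.5, 49.6 and 43.9 CPM in wt against 32.9, 35.4 and 34.6 in het (log2 fold change -0.42). Xpnpep1, an aminopeptidase, had 211, 210.01 and 236 CPM in wt against 158, 179.6 and 172 in het (log2 fold change -0.37). In each of these 3 genes the groups did not overlap but sat close to each other.

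Opa3, a mitochondrial protein, gave a log2 fold change of -0.39, and the chloride channel gene Clic6 -0.64. Galnt2, which starts O-linked glycosylation, had 116, 94.3 and 112 CPM in wt against 72.00, 90.1 and 76.5 in het (log2 fold change -0.44). It lies on chromosome 8, where wt line 1 stood apart, and without that line the value was -0.38. All exon bases of Gm20388 lie in exons of other genes, with the largest overlap in Galnt2, so it is not a separate observation. At the low end, Serpind1, the thrombin inhibitor heparin cofactor II, had 16, 4 and 12 counts in wt and 0, 0 and 1 in het, and Vnn1, a pantetheinase, had 19, 12 and 19 counts in wt and 5, 2 and 4 in het.

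Large fold changes were found mainly in genes of low level. The 6 higher in het with the largest fold among genes whose groups did not overlap and that averaged 50 or more counts in either group were Onecut2, St8sia4, Atp2b4, Gm9873, 9330151L19Rik and Emp1, at log2 fold changes of 1.33 to 1.94. Onecut2, a homeodomain factor, had 1.32, 0 and 1.03 CPM in wt against 4.07, 2.38 and 3.90 in het (95% CI 0.67 to 3.21). Emp1, an epithelial membrane protein, had 0.660, 1.99 and 1.52 CPM in wt against 4.38, 2.86 and 2.74 in het (95% CI 0.36 to 2.31). The 6 lower by the same rule were Rgs5, Gm13061, Ceacam9, Pcdh12, Adora2b and Habp2, at log2 fold changes of -1.28 to -0.91. Ceacam9, an adhesion molecule gene known from the placenta, had 20.96, 33.9 and 28.2 CPM in wt against 11.96, 20.8 and 6.84 in het (95% CI -1.76 to -0.35). Rgs5, a regulator of G protein signalling, had 2.86, 3.42 and 7.05 CPM in wt against 1.53, 2.43 and 1.57 in het (95% CI -2.17 to -0.40). In Gm13061, 35.2% of exon bases overlap other genes, with the largest overlap in Lin28a, an abundant gene on the other strand. In 9330151L19Rik 43.5% do, with the largest overlap in Dnaaf2, so the reads of both are uncertain.

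Zinc finger genes of a pair of chromosomal clusters were mostly higher in het. Both clusters hold KRAB zinc finger genes, which bind DNA and recruit heterochromatin to transposable elements, and their members arose by duplication. The first promoter regions below are shown because the genes on both sides of them leaned the same way, and the second pair because it is an example of a close match between members. The sequences are from RefSeq on GRCm38.p6, 5′ to 3′, with CG dinucleotides in capitals. The first lies between the start of Zfp942 on the minus strand and that of Zfp943 on the plus strand (chr17:21962465-21962558), and the second between those of Zfp944 and Zfp758 (chr17:22361401-22361462), both written on the plus strand.

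Zfp942 and Zfp943: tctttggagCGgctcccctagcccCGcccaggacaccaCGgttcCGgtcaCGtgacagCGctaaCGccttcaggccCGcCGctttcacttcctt

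Zfp944 and Zfp758: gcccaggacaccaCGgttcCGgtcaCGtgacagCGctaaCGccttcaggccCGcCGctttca

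The whole 62 bases between Zfp944 and Zfp758, with their 7 CG dinucleotides, recur without a mismatch from base 26 of the region between Zfp942 and Zfp943. The GENCODE starts of Zfp943 and Zfp758 lie a few bases inside these windows. For the chromosome 4 cluster, the 250 bases upstream of Zfp979 (chr4:147642509-147642758, minus strand) and of Rex2 (chr4:147021600-147021849, plus strand) read as follows.

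Zfp979: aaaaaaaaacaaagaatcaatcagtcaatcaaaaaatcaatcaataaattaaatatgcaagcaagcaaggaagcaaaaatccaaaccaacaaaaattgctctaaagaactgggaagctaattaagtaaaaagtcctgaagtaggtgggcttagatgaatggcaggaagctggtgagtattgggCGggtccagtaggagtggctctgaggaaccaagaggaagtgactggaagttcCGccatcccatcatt

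Rex2: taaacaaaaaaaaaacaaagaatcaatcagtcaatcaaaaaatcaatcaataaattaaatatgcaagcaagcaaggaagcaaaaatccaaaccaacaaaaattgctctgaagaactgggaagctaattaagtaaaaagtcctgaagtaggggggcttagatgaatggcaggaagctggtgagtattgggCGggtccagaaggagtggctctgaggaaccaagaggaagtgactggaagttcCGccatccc

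These windows were 94.1% identical, with a longest shared run of 102 bases, and each held 2 CG dinucleotides. Of all 32851 RefSeq windows of the 250 bases before a start, 81.2% held at least 2. The windows of the same length before Zfp942 and Zfp943 each held 17, and 23.5% of all windows held at least as many. Over pairs of windows within a cluster the median identity was 68.6% on chromosome 4 and 52.2% on chromosome 17, so the pair shown is closer than most. Windows of the chromosome 17 cluster held a median of 8 CG dinucleotides over 21 of its 23 genes, those of the chromosome 4 cluster a median of 2 over 13 of its 22, and all windows a median of 6. The search counted the letters CG, which read the same on both strands.

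On chromosome 17, 20 of 23 zinc finger genes were higher in het and 3 lower, with a median log2 fold change of 0.31. Of them 10 had an unadjusted p under 0.05, all higher, and 10 lay wholly above the wt lines, where 3.37% and 6.49% of all genes did so. The list was drawn up after the values of some of its members had been seen, so it carries no test. With a filter of at least 1 count, 3 of the 23 passed the adjusted threshold, where 87 of all 22847 genes did. Zfp942 had 22.7, 20.2 and 21.7 CPM in wt against 33.5, 32.9 and 44.3 in het (log2 fold change 0.77, 95% CI 0.44 to 1.11). Its head-to-head neighbour Zfp943 had 6.22, 5.27 and 4.74 CPM in wt against 11.96, 9.45 and 12.01 in het (log2 fold change 1.04, 95% CI 0.56 to 1.52). For both, the groups were clearly apart in every line.

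The other divergent pair was smaller in effect. Zfp944 had 13.8, 12.3 and 16.8 CPM in wt against 19.5, 19.8 and 21.6 in het (log2 fold change 0.50), and Zfp758 had 5.89, 4.42 and 6.01 CPM in wt against 6.82, 9.88 and 8.21 in het (log2 fold change 0.59). Zfp946 had 9.96, 9.83 and 7.65 CPM in wt against 17.5, 12.7 and 18.2 in het (log2 fold change 0.82), and Zfp947 1.71, 2.14 and 1.76 CPM against 3.56, 4.38 and 3.65 (1.07). Groups did not overlap for any of these 4 genes. Zfp677, Zfp51, Zfp760 and Zfp945 had log2 fold changes of 0.31 to 0.66. Zfp213, at the end of the cluster, was the exception that lay wholly below, with 21.4, 14.8 and 15.5 CPM in wt against 12.8, 12.9 and 14.6 in het. Of its exon bases 56.6% overlap other genes, with the largest overlap in Gm26695 on the other strand. With any 1 line left out, 18 to 20 of the 23 genes were higher in het and 6 to 9 had an unadjusted p under 0.05 in that direction, the fewest without het line 3. Zfp942 was 0.18, 0.30 and 0.31 higher at days 0, 2 and 3 on the log2 scale, and Zfp943 0.53, 0.20 and 0.02. Of the 23 genes, 19, 18 and 16 were higher on those days, with medians of 0.28, 0.17 and 0.11.

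On distal chromosome 4, 22 of 31 genes passed the filter on low counts, of which 20 were higher in het and 2 lower, with a median log2 fold change of 0.31. Of them 9 had an unadjusted p under 0.05, all higher, and 7 lay wholly above wt. The region was chosen because earlier results of these data pointed to it, so this list carries no test either. With a filter of at least 1 count, 3 of its 28 genes passed the adjusted threshold, where 87 of all 22847 genes did. Zfp979 had 88.1, 75.7 and 88.99 CPM in wt against 91.2, 129 and 208 in het. Het line 3 stood high and het line 1 was only just above the wt lines. The log2 fold change was 0.76 (95% CI 0.26 to 1.26), and without het line 3 it was 0.36. Zfp988 had 40.3, 42.7 and 43.7 CPM in wt against 49.6, 54.6 and 87.1 in het (log2 fold change 0.59), or 0.28 without het line 3. Zfp981 had 21.01, 26.8 and 29.9 CPM in wt against 34.96, 36.4 and 43.7 in het (log2 fold change 0.57), and Rex2 8.03, 5.56 and 10.6 CPM against 12.7, 13.1 and 21.1 (0.93).

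The chromosome 4 pattern thus rested in part on single lines. Without het line 3, 17 of 22 genes were higher and 3 had an unadjusted p under 0.05, and without wt line 1, 17 of 24 were higher and 6 had one. Reads of these genes are also shared: only 16.5% of the 75-base stretches of the longest Rex2 transcript and 40.3% of those of Zfp988 occur in no other gene, against 80.2% for Zfp979 and 96.0% for Zfp942. The differences for Zfp979 at days 0, 2 and 3 were 0.61, 0.91 and 0.59, so its lean was present before Wnt activation as well. So was that of the list. At day 0, 22 of 23 genes were higher (median 0.32, 17 with an unadjusted p under 0.05), at day 2, 22 of 24 (median 0.56, 15, of which 6 passed the adjusted threshold in edgeR) and at day 3, 20 of 22 (median 0.25, 2). For these days, too, the shares over all genes are not given here.

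**Figure D2:**
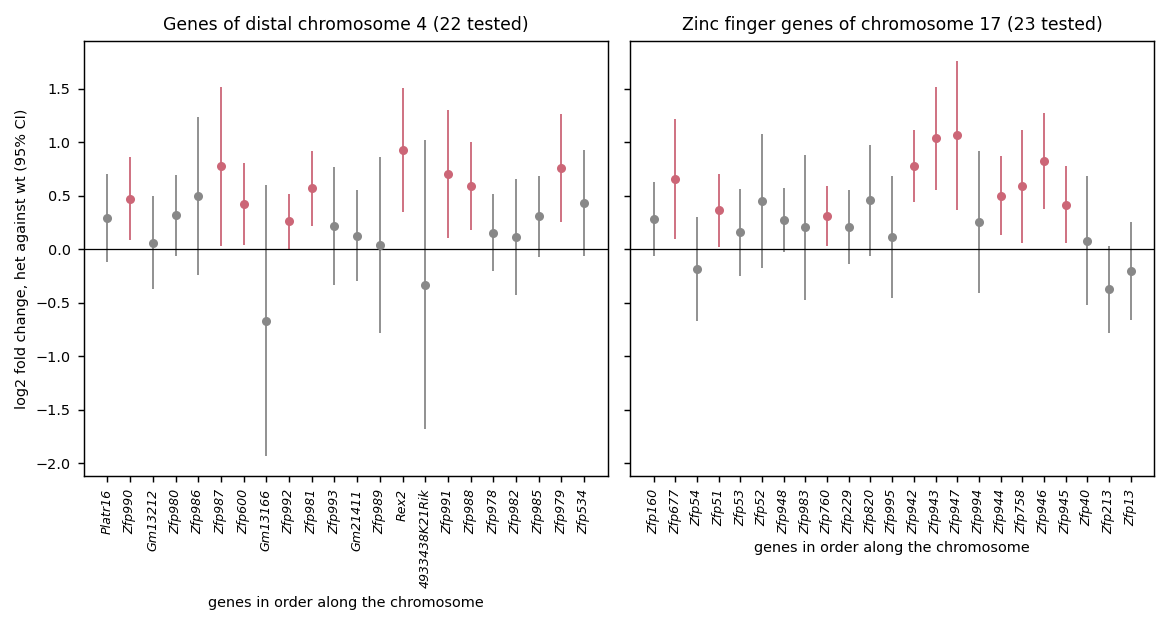
Log2 fold change of het against wt at day 2.5 with its 95% confidence interval for the 22 tested genes of distal chromosome 4 and the 23 zinc finger genes of chromosome 17, in order along each chromosome. Red marks an unadjusted p under 0.05, which 9 and 10 genes had, and 20 genes in each panel lie above 0.

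The factors that mark the caudal epiblast and NMPs overlapped between the groups, with 1 exception. All 13 were tested, 8 were higher and 5 lower in het, 0 had an unadjusted p under 0.05, and the median log2 fold change was 0.03. T had 452, 283 and 193 CPM in wt against 372, 323 and 388 in het. The 3 het lines fell inside the range of the wt lines, which spanned more than 2-fold, and the log2 fold change was 0.22 (95% CI -0.28 to 0.73). Cdx2, a caudal homeodomain factor that acts on Hox genes, had 177, 149 and 110.3 CPM in wt against 148.1, 132 and 166 in het (log2 fold change 0.03, 95% CI -0.31 to 0.38). Cdx1 had 311, 229 and 165 CPM in wt against 175, 180.4 and 237 in het (-0.25, 95% CI -0.68 to 0.18), and Cdx4 52.5, 44.3 and 31.8 CPM against 49.4, 42.9 and 60.7 (0.25, 95% CI -0.15 to 0.66). In each of the 3 Cdx genes the groups overlapped.

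Nkx1-2, a homeobox gene of the caudal lateral epiblast, had 260.2, 205 and 151 CPM in wt against 180.2, 157 and 224 in het (log2 fold change -0.13, 95% CI -0.53 to 0.26). The zinc finger factor Sp5, a direct Wnt target, had 59.02, 47.3 and 38.7 CPM in wt against 50.4, 40.8 and 54.4 in het (log2 fold change 0.00, 95% CI -0.36 to 0.37). Sox2, the neural and pluripotency factor, was the only one of the 13 without overlap. It had 40.8, 43.7 and 43.6 CPM in wt against 45.6, 50.9 and 54.9 in het, and the log2 fold change was 0.24 (95% CI -0.02 to 0.51). The remaining factors ran from -0.08 for Evx1 and -0.06 for Wnt8a to 0.17 for Fgf17. Fgf8, Fgf17 and Wnt3a, which sustain the caudal stem zone, were low, at 2.00 to 11.5 CPM, with their highest value in wt line 1.

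**Figure D3:**
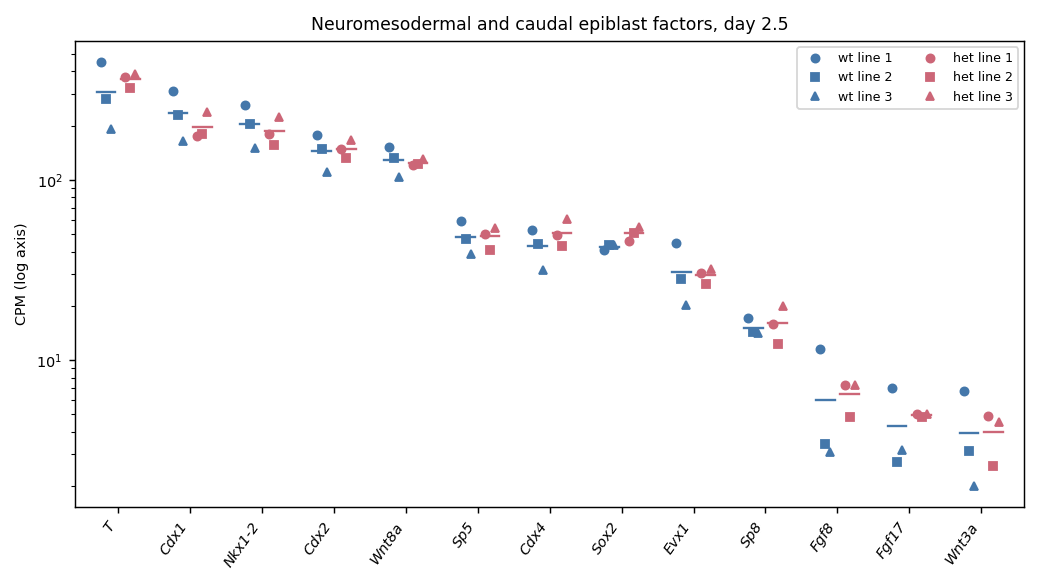
Level in CPM, on a log axis, of the 13 neuromesodermal and caudal epiblast factors at day 2.5, ordered by their mean in wt. Points are lines and bars the mean of 3 lines. Line 1 of wt is the highest point for most factors and line 3 of wt the lowest, for example 452 and 193 CPM for T, and the het lines mostly sit between them.

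The wt lines were ordered alike in most of these factors. A level of the list in each library, the median over genes of log2(CPM + 1) less its mean over the 6 libraries, was 0.43, -0.05 and -0.39 in wt lines 1 to 3 and 0.04, -0.15 and 0.22 in het lines 1 to 3. Without wt line 1, all 13 factors were higher in het and 4 had an unadjusted p under 0.05, T among them at a log2 fold change of 0.61. Without wt line 3, 3 were higher and 10 lower, and T was at -0.03. Without wt line 2, het line 1 or het line 3, 5, 6 and 4 were higher. The direction of this list thus differed with the wt line left out.

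Wnt pathway genes gave the same picture. Of 18 feedback and direct target genes, 7 were higher and 11 lower in het, 0 with an unadjusted p under 0.05, at a median log2 fold change of -0.01. Without wt line 1, 16 of the 18 were higher (median 0.15), without wt line 3, 5 were higher (-0.13), and without het line 2, 12 were (0.02). Axin2 had 197, 115 and 104 CPM in wt against 128, 113 and 146 in het (log2 fold change -0.11, 95% CI -0.56 to 0.34), and wt line 1 was the highest. Ccnd1, the cyclin of G1 phase, had 162, 138 and 114 CPM in wt against 131, 127 and 152 in het (-0.02), and Znrf3, a ligase that removes Wnt receptors, 42.2, 37.9 and 36.3 CPM against 44.4, 39.97 and 46.2 (0.16). Neither differed beyond the spread of the lines. Of 22 genes of the beta-catenin and Tcf/Lef machinery, 6 were higher and 16 lower, with 1 at an unadjusted p under 0.05. That gene was Bcl9l, a beta-catenin coactivator, with 14.7, 16.1 and 15.7 CPM in wt against 12.4, 10.5 and 11.9 in het (log2 fold change -0.42, 95% CI -0.79 to -0.05). Ctnnb1, which encodes beta-catenin, had 838, 794 and 767 CPM in wt against 762, 711 and 979.8 in het (0.03, 95% CI -0.24 to 0.31). Of 19 Wnt ligands 12 were tested, 6 higher and 6 lower, none at an unadjusted p under 0.05, and Wnt3 was at 0.30 and Wnt11 at -0.46.

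Genes of the FGF and ERK pathway, whose ligand the medium contained, had mostly small positive differences. Of 11 feedback genes 8 were higher and 3 lower in het, 3 had an unadjusted p under 0.05, and the median log2 fold change was 0.14. Dusp6, an ERK phosphatase, had 139, 128 and 109 CPM in wt against 136, 159 and 181 in het (log2 fold change 0.34, 95% CI 0.05 to 0.63). Spred1, a Ras pathway inhibitor, had 171, 175 and 177 CPM in wt against 183, 198 and 250.4 in het (0.27), and the ETS factor Etv1 9.35, 7.69 and 14.03 CPM against 15.3, 13.2 and 17.5 (0.54). Without wt line 2 or without het line 3, 0 of the 11 had an unadjusted p under 0.05, and without wt line 3 or het line 2, 1 had one. The median was 0.01 without wt line 3, 0.01 without het line 3 and 0.26 without wt line 1. Mesodermal and pluripotency factors stayed near the middle. Of 10 tested primitive streak and mesoderm factors 5 were higher and 5 lower, with Mixl1 at 0.48 and Eomes at -0.08, and of 13 core and primed pluripotency factors 6 were higher and 7 lower, or 10 and 3 without wt line 1, with Pou5f1 at -0.12, Lin28a at 0.00 and the Nodal coreceptor Tdgf1 at 0.24. Of 13 naive pluripotency factors 4 were higher and 9 lower, with Nanog at 0.00 and Esrrb at 0.26, each a log2 fold change.

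Markers of endoderm were the list with the lowest median. Of its 25 genes 20 were tested, 1 was higher and 19 lower in het, 4 had an unadjusted p under 0.05, all lower, and the median log2 fold change was -0.44. With a filter of at least 1 count in place of the main one, 17 of 25 were lower with an unadjusted p under 0.05 and 6 passed the adjusted threshold. Of all 22847 genes under that filter, 516 were lower with an unadjusted p under 0.05 and 87 passed the adjusted threshold. Col4a1, a basement membrane collagen that parietal endoderm makes in quantity, had 1829.6, 2407 and 3852 CPM in wt against 1689.6, 2326 and 1452 in het (log2 fold change -0.57, 95% CI -1.09 to -0.04). Its neighbour Col4a2 had 834, 1047 and 1704 CPM in wt against 740.03, 1010.1 and 645 in het (-0.58, 95% CI -1.09 to -0.08). In both, wt line 3 was far above the rest and wt line 1 lay among the het lines. Both genes are on chromosome 8. Apom, an apolipoprotein, had 25, 9 and 28 counts in wt and 14, 9 and 7 in het.

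The defining endoderm factors followed the same order of lines. Gata4 had 34.8, 69.5 and 109 CPM in wt against 45.2, 59.2 and 38.8 in het (log2 fold change -0.58, 95% CI -1.26 to 0.10). Sox17 had 14.2, 24.9 and 37.7 CPM in wt against 19.18, 23.1 and 13.9 in het (-0.45), Gata6 18.7, 38.8 and 52.8 CPM against 29.7, 36.8 and 26.7 (-0.24), and the endocytic adaptor Dab2 151, 326 and 453 CPM against 184, 270.2 and 154 (-0.61). These factors were expressed in every line, and Afp, Ttr, Apoa1, Cer1 and Foxa1 did not pass the filter on low counts. The list was lower on the other days too. Its median was -0.79 at day 0 (14 of 20 genes lower with an unadjusted p under 0.05), -1.04 at day 2 (18, of which 13 passed the adjusted threshold in edgeR's quasi-likelihood test of that day) and -0.66 at day 3 (14). The shares over all genes on those days are not given here, so these counts cannot be set against a background. In bulk RNA, fewer cells of a type and less RNA per cell cannot be told apart.

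Line by line, the endoderm level was -0.64, 0.28 and 0.81 in wt and -0.19, 0.14 and -0.49 in het, on the scale used above for the caudal factors. The order of the wt lines was the reverse of that for the caudal factors, with line 1 lowest and line 3 highest, and in both lists the het lines spanned a narrower range (0.633 against 1.46 for endoderm, 0.371 against 0.824 for caudal factors). Without wt line 3, 14 of 21 endoderm genes were lower, 0 had an unadjusted p under 0.05 and the median was -0.03. Without wt line 1, 20 of 22 were lower, 18 of them with an unadjusted p under 0.05, and the median was -0.74. Over all genes of that fit, 948 of 16054 were lower with an unadjusted p under 0.05. Without het line 1, het line 2 or het line 3, 2, 6 and 1 endoderm genes had one in that direction. The part of this spread in other differences between the groups was not tested.

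**Figure D4:**
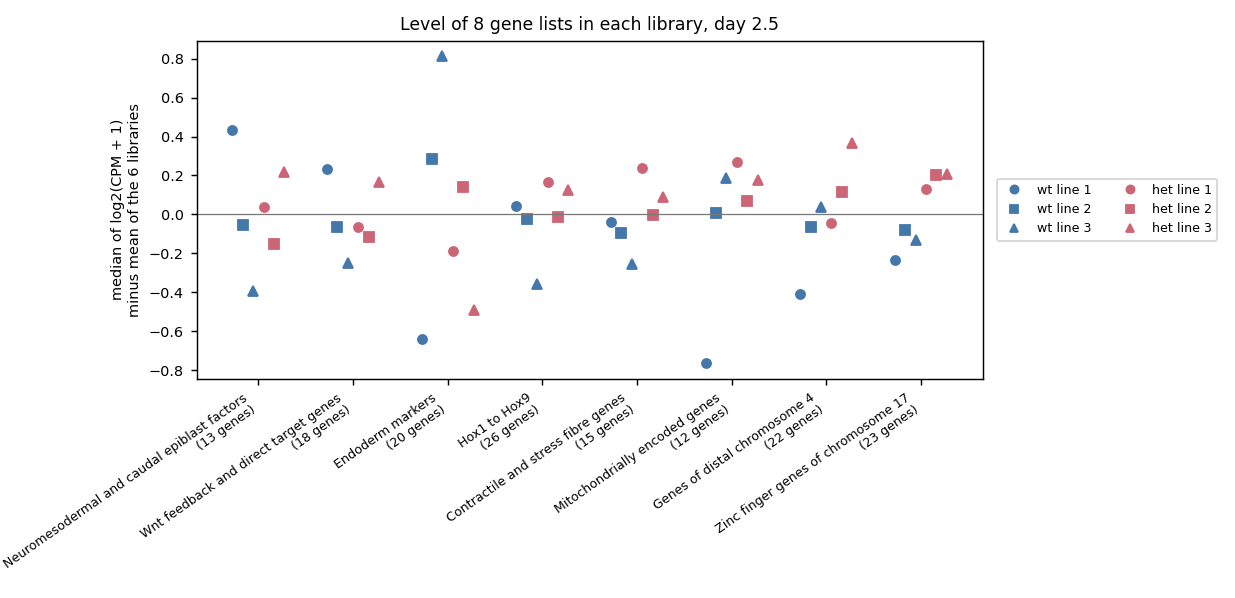
Level of 8 gene lists in each of the 6 libraries at day 2.5, as the median over genes of log2(CPM + 1) minus the mean of the 6 libraries. Blue is wt and red is het, and symbols mark line 1 (circle), 2 (square) and 3 (triangle). Caudal factors run from 0.43 in wt line 1 to -0.39 in wt line 3 and endoderm markers from -0.64 to 0.81 in the opposite order, while the chromosome 17 zinc finger genes lie below 0 in all 3 wt lines and above 0 in all 3 het lines.

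Hox genes of the groups 1 to 9, the positional genes that Wnt activation switches on in order, were mostly higher in het at day 2.5. Of 27 genes 26 were tested, 20 were higher and 6 lower, 4 had an unadjusted p under 0.05, all higher, and the median log2 fold change was 0.29. On the other days most of the tested members were lower: 9 of 11 at day 2 (median -0.49) and 16 of 26 at day 3 (median -0.16, with 2 higher and 4 lower at an unadjusted p under 0.05). The 4 with an unadjusted p under 0.05 at day 2.5 were genes of low level. Hoxa2 had 1.71, 2.14 and 2.07 CPM in wt against 4.68, 2.86 and 3.45 in het (log2 fold change 0.91, 95% CI 0.17 to 1.65). Hoxd9 had 2.59, 2.42 and 0.911 CPM in wt against 4.58, 2.75 and 5.02 in het (1.09, 95% CI 0.16 to 2.01), and Hoxd4 0.935, 1.57 and 0.425 CPM against 3.56, 1.62 and 1.5 (1.28). Hoxd3 had 3 counts in each wt library and 17, 12 and 11 in het, and it shares most of its transcript with Gm28230 and Hoxd4. The wt counts of Hoxd3 are at the floor, so no fold is given.

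Hox genes of the first groups with higher levels had smaller differences. Hoxb1 had 78.4, 49.4 and 43.01 CPM in wt against 48.6, 51.1 and 51.9 in het (log2 fold change -0.18, 95% CI -0.59 to 0.24), and Hoxb2 22.2, 25.5 and 12.03 CPM against 22.1, 17.8 and 18.4 (-0.01, 95% CI -0.54 to 0.51). For both the groups overlapped. Without wt line 3, in which the list was lowest, 16 of 26 Hox genes were higher, 1 had an unadjusted p under 0.05 and the median was 0.12, and without het line 1, 0 had one, and without wt line 1 or het line 3, 2 had one. Of the 12 genes of groups 10 to 13, 4 were tested, 2 higher and 2 lower. Among them Hoxd13 had 1.05, 0.855 and 1.88 CPM in wt against 1.93, 2.05 and 3.60 in het (0.96, 95% CI -0.03 to 1.94).

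Clustered protocadherins and imprinted genes are other classes known to respond to SMCHD1. The 14 protocadherin alpha rows were all higher in the het lines (median log2 fold change 0.37) and 0 at an unadjusted p under 0.05, but they share exons and count as few observations, and without het line 1 only 2 of 14 were higher and the median was -0.09. The 21 gamma rows, which share exons too, had a median of 0.09, without wt line 3 0 of 21 were higher, and without wt line 1 all 21 were higher with an unadjusted p under 0.05. Of 32 tested imprinted genes outside the Snrpn cluster 21 were higher and 11 lower, with a median of 0.05. Of these, 4 higher and 1 lower had an unadjusted p under 0.05, where 3.37% and 1.90% of all genes did. Without wt line 3, het line 1 or het line 2, 2 higher and 0 lower had one, and without wt line 1, 6 higher and 2 lower. Zdbf2 had 130.1, 133 and 117 CPM in wt against 185, 151 and 172 in het (log2 fold change 0.42, 95% CI 0.18 to 0.66). Plagl1, a zinc finger gene of an imprinted growth network, had 9.79, 10.3 and 7.84 CPM in wt against 11.1, 13.8 and 14.7 in het (0.52), and Ppp1r9a 31.5, 30.2 and 25.6 CPM against 37.7, 40.9 and 33.6 (0.36). Kcnq1ot1, the silencing RNA of its domain, had 1.76, 5.70 and 6.50 CPM in wt against 11.1, 12.8 and 4.81 in het (1.07), and Trappc9 15.1, 15.96 and 16.2 CPM against 12.97, 11.2 and 12.5 (-0.36). The abundant H19 and Peg10 were at 0.16 and 0.15.

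**Figure D5:**
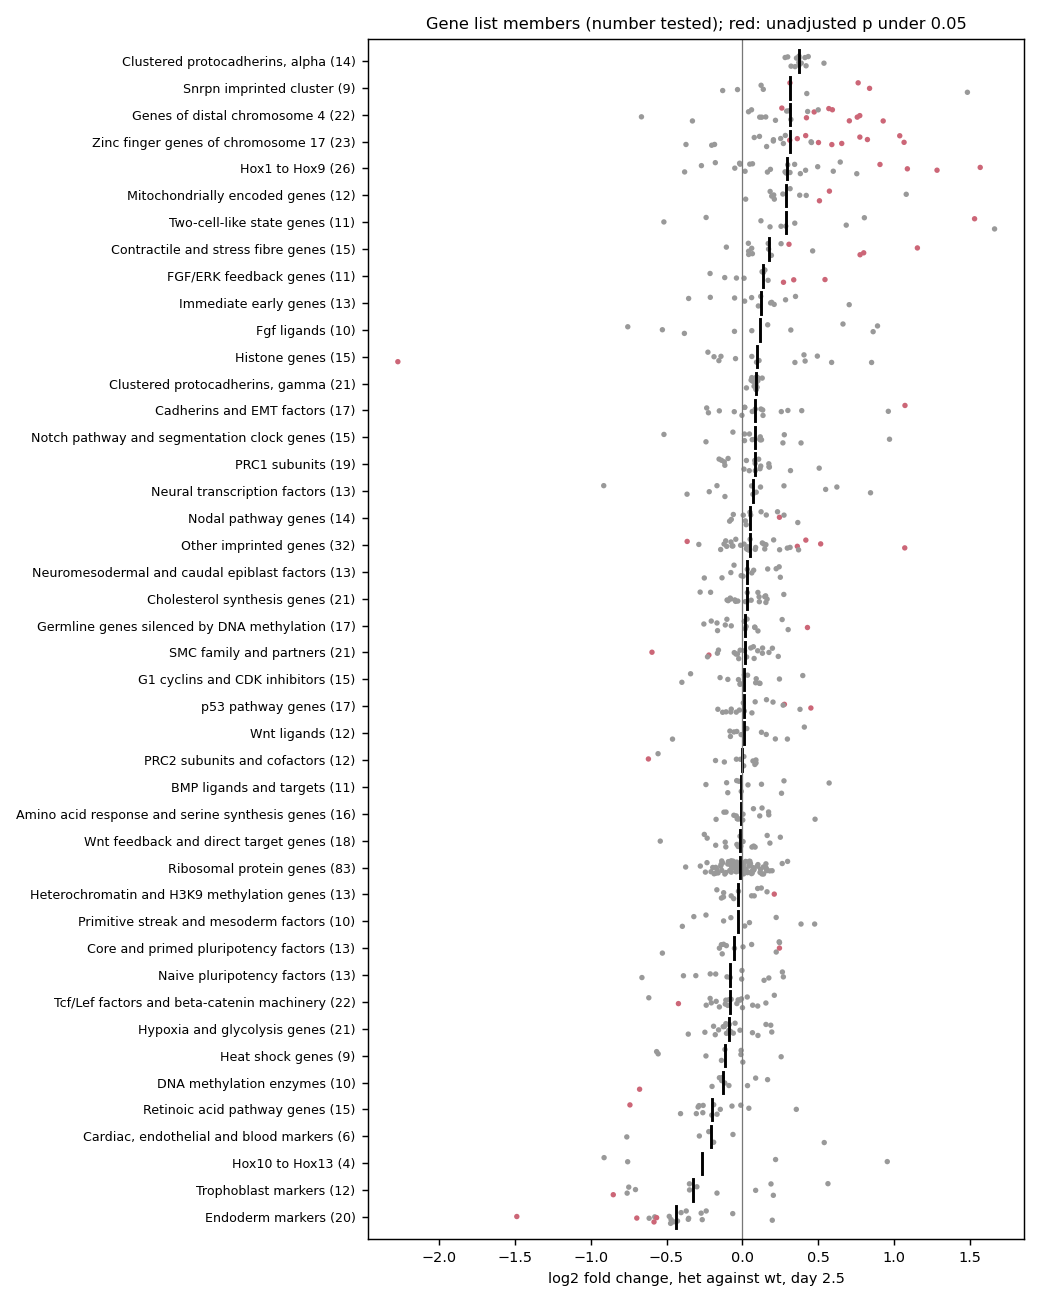
Log2 fold change of het against wt at day 2.5 for the tested members of each gene list with at least 4 tested, ordered by the list's median (black bar). Each point is a gene, red with an unadjusted p under 0.05. Endoderm markers have the lowest median (-0.44) and protocadherin alpha rows the highest (0.37), while most lists centre near 0.

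Chromatin regulators themselves mostly differed little in level, with some exceptions. In the list of 21 SMC proteins and partners, the family of Smchd1, 11 were higher and 10 lower with a median log2 fold change of 0.01, and besides Smchd1 only Smc1a, a cohesin subunit, had an unadjusted p under 0.05, with 221, 225 and 229 CPM in wt against 188, 181 and 210.3 in het (-0.22). Of the 21, 3 lay wholly above the wt lines and 4 wholly below, Smchd1 included, where 6.49% and 5.22% of all genes did. Among 12 genes of Polycomb repressive complex PRC2 the split was 6 and 6. Phf1, at -0.62, was the 1 with an unadjusted p under 0.05. Of its exon bases 39.3% overlap other genes, with the largest overlap in Cuta. Among 10 DNA methylation enzymes 3 were higher and 7 lower, with Dnmt3b at -0.13. The germline enzyme Dnmt3c, at -0.68, was the 1 with an unadjusted p under 0.05. Of 13 heterochromatin genes 6 were higher and 7 lower, and Atrx, a chromatin remodeller, had 292, 299.6 and 311 CPM in wt against 341, 347 and 356 in het (0.21, 95% CI 0.01 to 0.41).

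Finally, the difference between het and wt at day 2.5 was set against the mean of the same difference at days 0, 2 and 3. Of 17543 genes tested in a single edgeR fit of all 24 libraries, 0 had an adjusted p under 0.05 (0%) and 637 had an unadjusted p under 0.05 (3.63%). No gene was thus shown to differ between genotypes in a way particular to the time 12 h after Wnt activation. The lines are the same on all days, so this fit treats repeated samples of a line as separate, and with the line as a block the counts were 0 and 776.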

How the data were processed

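Poly(A) RNA was sequenced as 75-base single-end reads. Per the methods and the labels, the authors trimmed reads with Trim Galore 0.4.4, aligned them to GRCm38 with HISAT2 2.0.5 and deposited raw counts per gene from SeqMonk, and 2 small tables of log2 RPKM values per library for 39 Hox genes and 34 factors, which served only as a check. The counts held 35591 genes. The 10 rows without a gene identifier of their own were kept under their names, and the 8 columns of group means were left out.

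Genes were filtered with filterByExpr, normalised by TMM and tested with edgeR 4.0.16's quasi-likelihood test (R 4.3.3) on the 6 libraries of day 2.5, with Benjamini-Hochberg adjustment over all genes and a threshold of 0.05. All p-values are two-sided, those called unadjusted included, and come from this fit unless named otherwise. CPM are TMM-normalised. The lines are separate blastocyst outgrowths, so p-values measure the spread between lines. Line numbers are shared between genotypes, but residuals of same-numbered lines correlated at -0.02, 0.06 and -0.19 over 12252 genes, so no pairing was used. The scripts were tested on simulated data.

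The genes, lists and comparisons were chosen with earlier results of these data known. Named genes are Smchd1, the 12 higher and 12 lower with the smallest p among genes whose groups do not overlap, the 6 higher and 6 lower with the largest fold among those averaging 50 or more counts in either group, and per list the 3 members with the smallest p and the 3 with the highest level. Many genes that this rule picks, those of whole lists included, are not named in the text, and some are not reported here. Genes named beyond that were chosen after their values were seen. Alternatives were DESeq2 1.42.0, limma 3.58.1 voom, other scalings and filters, thinning, a replicate block and leaving out each line. Overlaps and coordinates come from GENCODE on GRCm38. A floor of 3 counts equals 0.152 to 0.427 CPM per library. It covers counting error only.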

Additional observations from a re-analysis of the deposited data

How the results depend on the processing

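Of 17 alternatives, 12 also called 0 genes between het and wt at day 2.5. A filter of at least 1 count called 87 of 22847 genes (52 higher, 35 lower), edgeR's exact test 11, DESeq2's Wald test 3 (Apoe, Snhg14 and Smchd1), and the fit of all 24 libraries 1 (Smchd1). Leaving out 1 line at a time called 0 to 3, the 3 being Snhg11, Cnpy1 and Neat1 without het line 3. Smchd1 passed under these settings, at log2 fold changes of -0.59 with at least 1 count, -0.60 by the Wald test, -0.60 by the exact test and -0.60 in the fit of all libraries, with adjusted p of 0.00246, 0.0393, 0.0191 and 0.0176, and 0.0802 to 0.999 under the others. The difference of day 2.5 from the other days gave 29 calls with at least 1 count and 0 otherwise. Without wt line 1, 1871 genes had an unadjusted p under 0.05, of which 49.3% were higher in het, against 64.0% of 822 with all lines. Library totals in place of TMM gave 72.2%.

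With the line number as a replicate block, 0 genes were called (670 at an unadjusted p under 0.05) and Smchd1 was at -0.59. The day difference was fitted with the line within genotype as a block instead, and gave 0 calls. The line numbers do not pair the lines, since het line 3 correlated best with wt line 1 (0.268) and het line 2 with wt line 3 (0.290).

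List medians moved with the filter. With at least 1 count they were 0.32 for Fgf ligands, 0.51 for genes of the 2-cell-like state, 0.19 for immediate early genes and -0.53 for Hox10 to Hox13. With a mean of at least 50 counts they were -0.030 for neural factors, -0.012 for heat shock genes and 0.45 for histone genes. With 1 line left out, medians ran from -0.15 to 0.41 for Wnt ligands, -0.093 to 0.16 for primitive streak and mesoderm factors, -0.12 to 0.61 for Fgf ligands, -0.062 to 0.094 for neural factors, -0.23 to -0.019 for naive pluripotency, -0.21 to -0.018 for DNA methylation enzymes, -0.064 to 0.23 for Nodal, -0.019 to 0.19 for BMP and -0.30 to -0.0029 for retinoic acid genes. They ran from 0.047 to 0.088 for imprinted genes outside the Snrpn cluster, -0.37 to 0.046 for cardiac and blood markers, 0.080 to 0.51 for 2-cell-like genes, 0.025 to 0.092 for PRC1, -0.066 to 0.016 for heterochromatin genes, 0.0021 to 0.12 for p53, -0.053 to 0.10 for amino acid response and -0.18 to -0.0036 for heat shock genes. For contractile genes they were 0.089 to 0.34, for Hox1 to Hox9 0.12 to 0.37, for Hox10 to Hox13 -0.63 to 0.20, for protocadherin alpha -0.089 to 0.93 and beta -0.67 to 0.65, for histone genes -0.12 to 0.28, and for chromosome 17 zinc finger genes, a list added after seeing the data, 0.25 to 0.38. The cause of these shifts was not tested.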

Other observations

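Genes of the cytoskeleton were mostly higher in the het lines. Of 18 contractile and stress fibre genes 15 were tested, 14 were higher and 1 lower, 4 had an unadjusted p under 0.05 and the median log2 fold change was 0.17. Acta2, smooth muscle actin, had 10.7, 10.3 and 7.65 CPM in wt against 23.3, 11.5 and 14.8 in het (log2 fold change 0.80, 95% CI 0.23 to 1.37), and Tagln, an actin-bundling protein, 50.3, 51.1 and 30.1 CPM against 99.7, 52.9 and 71.6 (0.78), although 67.9% of the exon bases of Tagln overlap other genes, with the largest overlap in Gm48529. Het line 1 held the highest value of both. Without het line 1, 0 of the 15 genes had an unadjusted p under 0.05 and the median was 0.09. On those 15 genes the medians were 0.00, 0.02 and 0.27 at days 0, 2 and 3. The difference in Tagln was 0.05, 0.12 and 1.19 at days 0, 2 and 3.

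Genes of retinoic acid signalling and trophoblast markers were mostly lower. Of 15 tested retinoic acid genes 2 were higher and 13 lower, with a median of -0.20, and without wt line 1, 7 were higher and 8 lower. Cyp26a1, which degrades retinoic acid, had 16.1, 33.2 and 41.4 CPM in wt against 13.9, 25.98 and 14.2 in het (-0.74), in the order of wt lines seen for endoderm markers. Of 12 tested trophoblast markers 4 were higher and 8 lower, with a median of -0.32 that ran from -0.48 without het line 2 to -0.14 without het line 3, and Psg29, a pregnancy-specific glycoprotein gene, had 29.9, 47.6 and 40.2 CPM against 17.6, 36.03 and 11.3 (-0.85).

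Of 17 p53 pathway genes 10 were higher and 7 lower. Trp53inp1, a p53 target, had 132, 129 and 135 CPM in wt against 155, 176 and 209.7 in het, without overlap (0.45, 95% CI 0.19 to 0.71). Of 11 tested genes of the 2-cell-like state 9 were higher, and Tcstv3 had 16, 3 and 2 counts in wt against 35, 21 and 27 in het.

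All 12 tested mitochondrially encoded genes were higher in het, with a median of 0.29, and without wt line 1, whose mitochondrial share was the lowest, 8 were higher and the median was 0.04. On the X chromosome 9.17% of 545 genes had an unadjusted p under 0.05, 37 higher and 13 lower, and the median log2 ratio of X-linked genes to the mean of the 6 libraries was -0.08 in wt line 1 against 0.00 to 0.03 in the others. Xist, which is chosen here after its values were seen and is low in male cells, had 9.13, 12.1 and 16.5 CPM in wt against 34.9, 32.6 and 15.3 in het (1.13, 95% CI 0.48 to 1.78). Of its exon bases 12.6% overlap other genes, with the largest overlap in Tsix on the other strand, so some of these reads are uncertain.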
